A study of Mus musculus with 10 samples.

Results

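Epithelial cells of the small intestine present surface proteins that are read by the intraepithelial lymphocytes lying between them. Here 7 genes for such proteins were followed, the butyrophilin-like genes Btnl1, Btnl2, Btnl4 and Btnl6 and the C-type lectin genes Clec2e, Clec2h and Clec2d. They were taken by name as listed epithelial ligands of these lymphocytes, with earlier results of these data known. For Clec2e a further reason was that the study names it as a target of HNF4 factors in the intestinal epithelium. The ligand genes are 7 of the 54838 genes listed for each library, and all 7 passed the filter on low counts.

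Jejunal crypts of 5 WT and 5 Arid3a conditional knockout (KO) mice were profiled by RNA sequencing, with a library from each animal. KO animals carried VillinCre-ERT2+/- and Arid3a fl/fl, so that Cre acted in Villin+ epithelial cells once tamoxifen was given, and the gene stayed intact in lymphocytes and stroma. Both genotypes received tamoxifen on 3 consecutive days and were killed 1 month after the first injection. The Cre and floxed status of the WT animals, the strain background and the age are not given in the sources used here. Animal identifiers in the labels fall into 2 series, 1 per genotype, so colony or litter and genotype cannot be told apart. Crypts were taken after the villi had been removed, and whole crypts hold several epithelial cell types and the lymphocytes attached to them.

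Butyrophilin-like proteins resemble the B7 family of costimulatory molecules. In mouse intestine BTNL1 pairs with BTNL6 or BTNL4 on enterocytes, and the BTNL1 and BTNL6 pair is needed for the resident γδ lymphocytes that carry the Vγ7 chain of the T cell receptor. CLEC2 proteins are ligands of the NKR-P1 family of lectin receptors found on natural killer cells and some T cells, and their genes lie among those receptor genes in the natural killer gene complex. HNF4 factors are nuclear receptors that drive gene expression in maturing enterocytes.

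The sequence before the start of transcription is shown for the 4 genes that share a short element there. Promoter windows of 250 bases before the start came from RefSeq on GRCm38.p6, and all 7 genes had one. That of Btnl4 (chr17:34475938-34476187, minus strand) lies inside the gene span given below, so it does not precede the start in that annotation. The element is AAAGTCC, the core of the HNF4 site CAAAGTCCA, printed in capitals. The core was chosen after the promoters had been read. For Clec2e the 10 bases that lie inside an annotated exon are left out. The windows are chr6:129100914-129101153 (minus strand) for Clec2e, chr6:128662135-128662384 (plus strand) for Clec2h, chr17:34376882-34377131 (plus strand) for Btnl1 and chr17:34354572-34354821 (plus strand) for Btnl2.
Clec2e: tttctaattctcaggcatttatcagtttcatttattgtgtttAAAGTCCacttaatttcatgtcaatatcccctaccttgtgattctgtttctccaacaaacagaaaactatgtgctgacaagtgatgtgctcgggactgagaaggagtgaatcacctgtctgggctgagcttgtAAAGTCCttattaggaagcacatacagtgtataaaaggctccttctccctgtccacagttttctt
Clec2h: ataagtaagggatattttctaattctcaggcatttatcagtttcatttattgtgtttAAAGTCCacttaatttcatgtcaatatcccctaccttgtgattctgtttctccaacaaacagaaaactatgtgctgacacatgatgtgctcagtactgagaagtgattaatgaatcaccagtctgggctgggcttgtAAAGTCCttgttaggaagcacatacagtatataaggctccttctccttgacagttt
Btnl1: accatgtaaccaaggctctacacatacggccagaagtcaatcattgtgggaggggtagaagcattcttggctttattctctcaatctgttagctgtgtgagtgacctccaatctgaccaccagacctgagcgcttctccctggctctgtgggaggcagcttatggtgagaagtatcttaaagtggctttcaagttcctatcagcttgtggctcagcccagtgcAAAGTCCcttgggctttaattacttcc
Btnl2: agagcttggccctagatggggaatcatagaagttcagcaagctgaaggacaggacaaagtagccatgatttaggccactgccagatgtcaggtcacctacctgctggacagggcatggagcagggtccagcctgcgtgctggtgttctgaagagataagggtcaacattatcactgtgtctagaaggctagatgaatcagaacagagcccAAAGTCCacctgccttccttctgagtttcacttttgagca

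The core stood 75 and 208 bases before the start of Clec2e, 56 and 193 bases before that of Clec2h, 27 bases before that of Btnl1 and 40 bases before that of Btnl2, each time on the strand of the gene. Searched on both strands over 250 bases before and 50 after the start, it was found in these 4 of the 7 genes and in 4.21% of all 32851 promoter windows. The full HNF4 site CAAAGTCCA, which contains the core, was present in Btnl2 alone of the 7 and in 0.475% of all windows. The GATA site AGATAA occurred in Btnl2 (11.2% of all windows) and ATTAAA, taken here for the AT-rich sites of ARID3A, in Btnl1 (13.9%). No window of the 7 held the CDX2 site CCATAAA (2.75%). A match describes these letters only, and a missing match says nothing of binding elsewhere.

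The Clec2e and Clec2h windows are near copies of each other, identical at 221 of 240 aligned positions (92.1%), with both core elements in the shared part. The windows of Btnl4 and Btnl6 were also alike, at 90.5% of aligned positions. Btnl1 and Btnl6, whose products pair, gave no alignment of 200 positions.

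The labels were first checked on the deleted gene. Arid3a was measured at 55, 60, 81, 80 and 74 counts in WT animals 1 to 5 and at 9, 14, 14, 26 and 31 counts in KO animals 1 to 5. The groups did not overlap, and the log2 fold change was -1.84 ± 0.32 (SE, edgeR adjusted p = 0.00204). These counts cover the whole gene, so transcripts of deleted alleles and of cells without Cre enter them. The crypt label was checked on Olfm4, of stem cells, and Lyz1, of Paneth cells, which averaged 5778 ± 1141 and 6607 ± 1655 CPM in WT animals (SD, n = 5 each). In KO animals they averaged 4077 ± 688 and 4367 ± 549 CPM (SD, n = 5 each), and the edgeR test called both lower. These genes do not measure villus cells left in a preparation, and whether animals differed in such cells was not tested. Libraries summed to between 27050455 and 28152743 expected counts in WT and between 28314069 and 31053622 in KO animals, every KO total above every WT total, and values below are CPM, counts scaled to the TMM library size, unless TPM is stated.

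All 7 ligand genes rose in KO crypts, and in CPM the lowest KO animal stood above the highest WT animal for all 7. In TPM the groups overlapped for Btnl2 (highest WT 22.92, lowest KO 22.86) and Btnl4 (25.21 and 24.43). Of all 14719 genes tested, 28.3% were called, 15.6% higher and 12.7% lower, while 12.0% had every KO animal above every WT animal and 7.63% every KO animal below. The log2 fold changes of the 7 ligand genes ran from 0.62 (Clec2d) to 2.51 (Clec2e), with a median of 1.26. The median over all genes tested was -0.03. In bulk crypts, more cells of a type and more RNA per cell cannot be told apart.

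**Figure D1:**
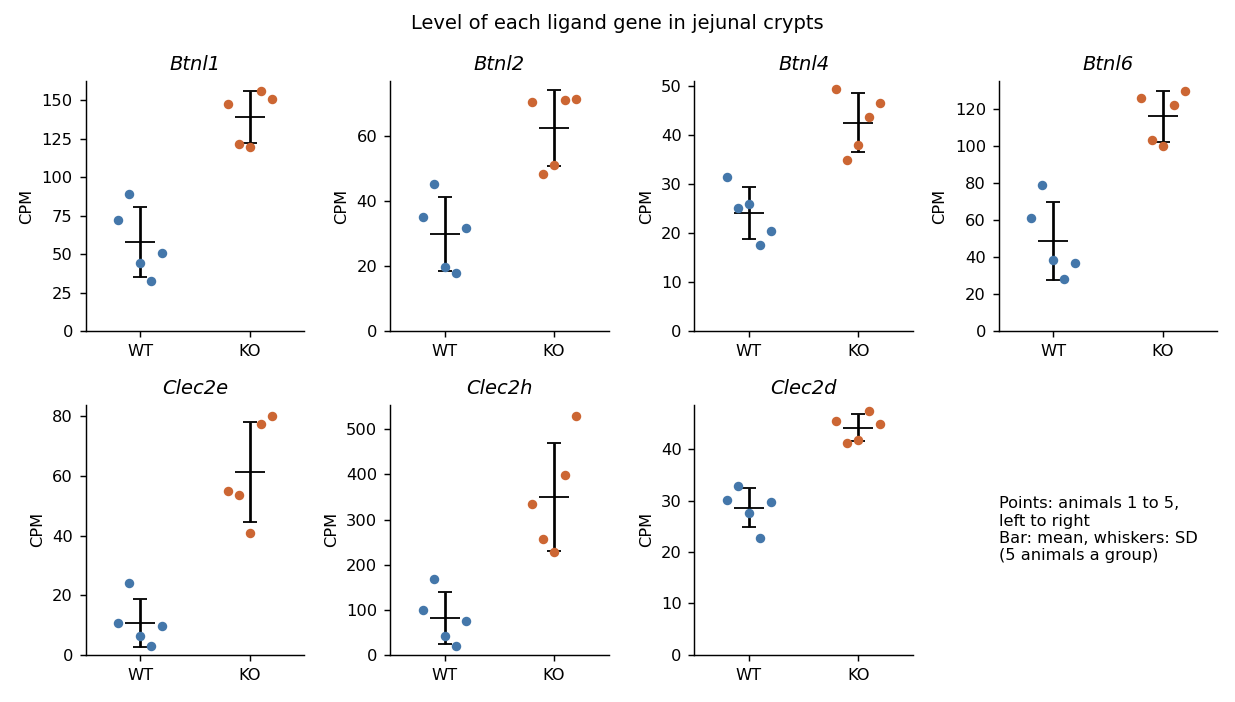
Level of each of the 7 ligand genes in CPM (vertical axis, from 0) in 5 WT and 5 KO animals, points being animals 1 to 5 from left to right, bars the mean and whiskers the SD. Every KO point lies above every WT point of the same gene, and WT animal 4 is the lowest in each panel.

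Btnl1, the partner common to the BTNL pairs (chr17:34377132-34386028, plus strand), stood at 72.6, 89.0, 44.3, 32.7 and 50.9 CPM in WT animals 1 to 5 and at 148, 122, 120, 156 and 151 CPM in KO animals 1 to 5. WT animals 3 and 4 were low and WT animal 2 high, while the KO animals lay close together and apart from all WT animals. Group means were 57.9 ± 22.7 CPM in WT and 139 ± 17.2 CPM in KO animals (SD, n = 5 each). The gene rose by 1.27 ± 0.24 on the log2 scale (SE, edgeR adjusted p = 0.00557).

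Btnl6, which pairs with Btnl1 for the Vγ7 cells (chr17:34507804-34517352, minus strand), was at 60.9, 79.2, 38.2, 28.0 and 36.9 CPM in the WT animals and at 126, 103, 100, 122 and 130 CPM in the KO animals. The order among WT animals resembled that of Btnl1, with animal 2 highest and animal 4 lowest, and the groups again did not overlap. Its log2 fold change was 1.26 ± 0.26 (SE, edgeR adjusted p = 0.00772).

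Btnl4, the other partner of Btnl1 (chr17:34466562-34477318, minus strand), had 31.4, 25.1, 26.0, 17.7 and 20.5 CPM in the WT animals and 49.5, 34.9, 38.1, 43.8 and 46.6 CPM in the KO animals. WT animal 1, not animal 2, was the highest here, and the lowest KO animal was 1.11 times the highest WT animal. The log2 fold change was 0.82 ± 0.15 (SE, edgeR adjusted p = 0.00291).

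Btnl2, a family member known to dampen T cell activation (chr17:34354822-34369495, plus strand), was measured at 35.1, 45.3, 19.9, 17.9 and 31.7 CPM in the WT animals and at 70.5, 48.4, 51.3, 71.1 and 71.5 CPM in the KO animals. KO animals 2 and 3 came close to WT animal 2, and the lowest KO animal was 1.07 times the highest WT animal, the narrowest gap of the 7 genes. Its log2 fold change was 1.06 ± 0.25 (SE, edgeR adjusted p = 0.0126).

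Clec2e, the named HNF4 target (chr6:129091998-129100913, minus strand), was the lowest of the 7 in WT crypts, at 10.8, 24.1, 6.18, 3.15 and 9.53 CPM in animals 1 to 5, and stood at 55.0, 53.7, 40.9, 77.5 and 80.0 CPM in KO animals 1 to 5. The 94 counts behind WT animal 4 were the fewest for any of the 7 genes. WT animal 2 was more than any other WT animal, yet the lowest KO animal was 1.70 times as high as it, the widest gap of the 7. Group means were 10.8 ± 8.04 CPM in WT and 61.4 ± 16.8 CPM in KO animals (SD, n = 5 each), and the log2 fold change of 2.51 ± 0.48 (SE, edgeR adjusted p = 0.00626) was the largest of the 7 genes.

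Clec2h, a CLEC2 gene of the gut epithelium (chr6:128662385-128677374, plus strand), was at 99.6, 168, 41.9, 19.4 and 75.3 CPM in the WT animals and at 335, 258, 228, 398 and 529 CPM in the KO animals. It varied most among WT animals, the highest being 8.68 times the lowest, and no WT animal reached the KO range. The log2 fold change was 2.11 ± 0.53 (SE, edgeR adjusted p = 0.0185), the least certain of the 7.

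Clec2d, the widely expressed ligand of the inhibitory receptor NKR-P1B (chr6:129180615-129186534, plus strand), stood at 30.2, 32.8, 27.6, 22.8 and 29.8 CPM in the WT animals and at 45.4, 41.1, 41.8, 47.4 and 44.9 CPM in the KO animals. It was the steadiest gene, with the highest WT animal 1.43 times the lowest and the highest KO animal 1.15 times the lowest. Its log2 fold change of 0.62 ± 0.09 was the smallest of the 7 and had the lowest edgeR adjusted p (0.00110).

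The lowest and highest WT animals were mostly the same across the 7 genes, while the KO extremes were split among animals. WT animal 4 was lowest of its group in 7 of 7 genes and WT animal 2 highest in 6 of 7. In KO animals the lowest was animal 3 in 4 genes and animal 2 in 3, and the highest animal 5 in 4 genes. Leaving out WT animals 3 and 4 together, chosen after the data had been seen, left all 7 genes called, the smallest log2 fold change being 0.51, while the number of genes called among all tested fell from 4167 to 2143.

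Per transcript length, in the TPM of the authors, the order in WT crypts was Clec2h, Btnl1, Btnl6, Clec2d, Btnl4, Btnl2 and Clec2e. Clec2h ranged from 16.4 to 124 TPM, and means were 42.1 ± 16.0 TPM for Btnl1, 39.2 ± 16.6 TPM for Btnl6 and 33.0 ± 3.40 TPM for Clec2d (SD, n = 5 each). The ranges of each neighbouring pair among these 4 overlapped. Clec2d was separated from Btnl4 (18.8 ± 4.43 TPM), and Btnl4, Btnl2 (15.5 ± 5.51 TPM) and Clec2e (6.82 ± 4.96 TPM) again overlapped with their neighbours. In all 5 WT animals Btnl1 exceeded Btnl6 and Btnl2 exceeded Clec2e.

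In KO crypts Clec2h stood at 254 ± 87.6 TPM, apart from Btnl1 (95.6 ± 14.6 TPM). Btnl1 and Btnl6 (88.0 ± 12.4 TPM) overlapped, and both lay apart from Clec2d (47.8 ± 4.59 TPM). Clec2e had moved from the last to the fifth place, at 37.2 ± 10.8 TPM, overlapping with Clec2d above it and with Btnl4 (31.0 ± 4.94 TPM) below it. Btnl2 was last, at 30.7 ± 6.44 TPM. Among all genes tested, Clec2e went from percentile 40.5 to 78.7 of mean TPM and Clec2h from percentile 86.1 to 96.7.

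**Figure D2:**
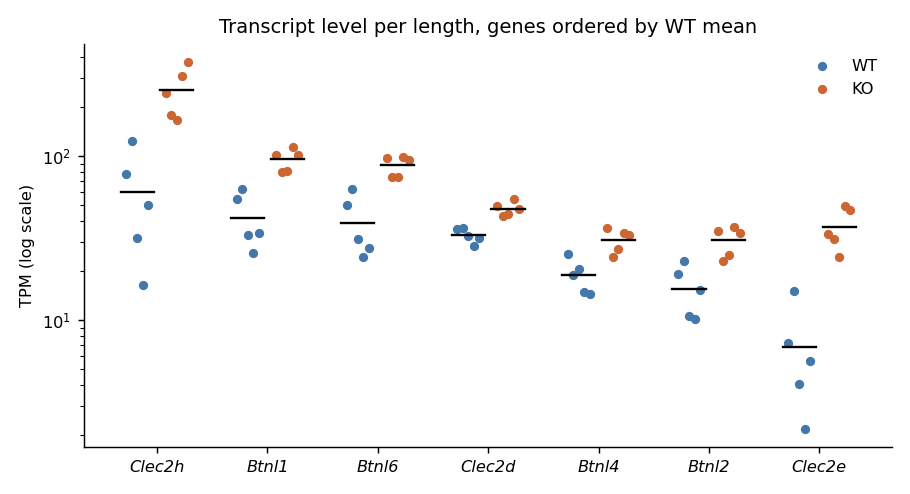
TPM of the 7 ligand genes (vertical axis, log scale) in 5 WT and 5 KO animals, with horizontal bars at the means and genes ordered by the WT mean. Clec2e is last in WT animals, at a mean of 6.82 TPM, and overlaps with Clec2d and Btnl4 in KO animals, at 37.2 TPM.

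Whether genes of a family rose to the same extent was asked with ratios taken within each animal, which do not depend on the scaling between libraries. The log2 ratio of Btnl1 to Btnl6 was 0.25, 0.17, 0.21, 0.22 and 0.46 in WT animals 1 to 5 and 0.22, 0.24, 0.26, 0.36 and 0.22 in KO animals 1 to 5. The values were mixed between the groups, and the genotypes differed by -0.00 on the log2 scale, with a 95% interval from -0.12 to 0.11 (two-sided exact permutation test, p = 0.984, the same after adjustment over the 6 ratios compared). The 2 genes of the pair thus rose by closely the same factor.

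The log2 ratio of Btnl1 to Btnl4 differed between the genotypes by 0.52 (95% interval 0.06 to 0.93) and that of Btnl1 to Btnl2 by 0.23 (0.02 to 0.45), both with p = 0.0397 and adjusted p = 0.0595 in the exact permutation test, so neither passed the adjusted threshold. The ratio of Btnl1 to Btnl4 was 1.20, 1.80, 0.76, 0.87 and 1.29 in WT and 1.57, 1.79, 1.64, 1.82 and 1.69 in KO animals. WT animal 2 lay within the KO range and the other WT animals below it, and without WT animal 2 the difference was 0.67 (adjusted p = 0.0159). Without WT animal 3 the difference in the ratio to Btnl2 was 0.28 (adjusted p = 0.0159). Neither ratio passed when any other animal was left out (adjusted p up to 0.143).

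The CLEC2 genes did not rise alike. The log2 ratio of Clec2e to Clec2d was -1.44, -0.43, -2.07, -2.68 and -1.60 in WT animals and 0.28, 0.38, -0.03, 0.70 and 0.82 in KO animals. The groups did not overlap, and the difference was 2.08 (95% interval 1.14 to 2.95, exact permutation p = 0.00794, the smallest 5 against 5 animals can give, adjusted p = 0.0238). For Clec2h to Clec2d it was 1.76 (0.71 to 2.94, p = 0.00794, adjusted p = 0.0238, exact permutation), again without overlap.

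Clec2e and Clec2h, the pair with near-identical promoter windows, differed from each other by 0.31 (95% interval -0.03 to 0.66, exact permutation p = 0.0635, adjusted p = 0.0762). Their log2 ratio was -3.14, -2.78, -2.67, -2.45 and -2.92 in WT and -2.59, -2.25, -2.46, -2.35 and -2.72 in KO animals. The ranges overlapped, and the interval leaves room for both an equal rise and a larger rise of Clec2e. Without WT animal 4 the difference was 0.40 (adjusted p = 0.0476), without any other animal it did not pass (adjusted p up to 0.162), and with a pseudocount of 5 in place of 0.5 its sign turned (-0.11).

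Enterocyte genes rose in the same libraries, so each ligand gene was set against 16 enterocyte markers within the animal. Of these markers 15 of 16 rose, with a median log2 fold change of 1.68, among them Apoa4, an apolipoprotein of chylomicrons (2.06 ± 0.53), and the transporters Slc15a1 (2.03 ± 0.53) and Slc2a2 (1.98 ± 0.47, SE). With no filter on low counts Apoa4 (2.06, adjusted p = 0.0528) and Slc15a1 (2.03, 0.0560) missed the threshold. Their mean log2 CPM ran from 6.25 to 8.42 in WT animals (7.40 ± 0.83) and from 8.61 to 9.52 in KO animals (9.16 ± 0.37, SD, n = 5 each), a difference of 1.76. WT animals 2 and 4, highest and lowest in the ligand genes, were also highest and lowest here, and the part of these cells in the rise of the ligand genes was not tested.

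Relative to these markers Clec2e rose further and the butyrophilin-like genes lagged. The log2 difference between Clec2e and the marker mean was -4.38, -3.79, -4.26, -4.38 and -4.14 in WT and -3.30, -3.35, -3.24, -3.24 and -3.14 in KO animals. KO animals lay in a narrow band above all WT animals, and the change was 0.94 (95% interval 0.66 to 1.14, exact permutation p = 0.00794, adjusted p over the 7 genes = 0.0278). For Clec2h the change was 0.62 (0.14 to 1.15, adjusted p = 0.0278, exact permutation), with some overlap of the groups. With the median of the markers in place of their mean it was 0.48 and did not pass (adjusted p = 0.0873). With a pseudocount of 5 in place of 0.5 the change was 0.46 for Clec2e, below the 0.57 of Clec2h (adjusted p = 0.0278 each, exact permutation).

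The 4 butyrophilin-like genes and Clec2d fell relative to the markers. The changes were -0.42 for Btnl1 (95% interval -0.84 to -0.02), -0.65 for Btnl2 (-1.08 to -0.22), -0.94 for Btnl4 (-1.78 to -0.23), -0.42 for Btnl6 (-0.86 to -0.01) and -1.14 for Clec2d (-1.88 to -0.37), with adjusted p of 0.0278 to 0.0476 in the exact permutation test. Of these Btnl2 alone showed no overlap between the groups. Among the WT animals the same genes were also lowest relative to the markers in animal 2, where the markers were highest, apart from Btnl6, which was lowest in animal 5. Without WT animal 4, where the markers were lowest, the changes ran from -0.93 (Clec2d) to 0.89 (Clec2e) with adjusted p of 0.0556 to 0.119. Leaving out KO animal 1 (for Clec2e 0.95), KO animal 4 (0.94) or KO animal 5 (0.91) likewise left none of the 7 genes past the adjusted threshold. Measured against 7 pan-epithelial markers instead, of which Vil1 alone rose, all 7 ligand genes rose, Btnl1 by 1.20, Btnl2 by 0.97, Btnl4 by 0.68, Btnl6 by 1.20 and Clec2d by 0.48.

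**Figure D3:**
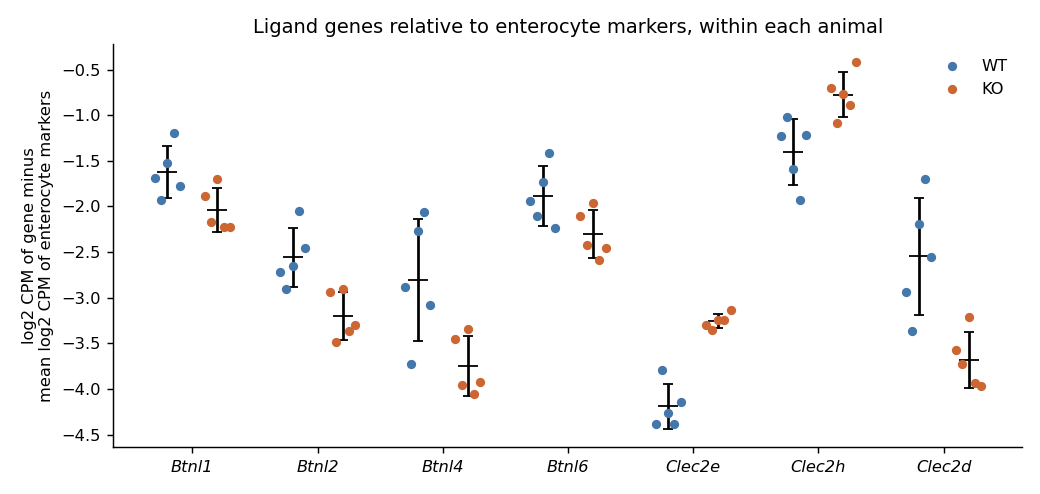
Log2 CPM of each ligand gene minus the mean log2 CPM of 16 enterocyte markers of the same animal (vertical axis), for 5 WT and 5 KO animals, with bars at the mean and whiskers for the SD. Clec2e and Clec2h are higher in KO animals, by 0.94 and 0.62, and the other 5 genes lower.

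Of 19 other butyrophilin family genes in the files only Btnl5-ps and Btnl7-ps, annotated as pseudogenes beside Btnl4 and Btnl6, passed the filter, and both rose. Per length Btnl5-ps was on average above each ligand gene in WT animals, at 67.8 ± 18.9 TPM. In KO animals it was above all but Clec2h, at 115 ± 16.5 TPM (SD, n = 5 each). It stood at 59.6, 59.2, 43.8, 31.4 and 36.4 CPM in WT and 96.0, 72.7, 79.0, 89.6 and 94.7 CPM in KO animals, without overlap (log2 fold change 0.91 ± 0.17, SE, edgeR adjusted p = 0.00444). Btnl7-ps stood at 5.85 ± 4.24 CPM in WT and 19.9 ± 5.13 CPM in KO animals (SD, n = 5 each). It rose by 1.77 ± 0.49 on the log2 scale (SE, edgeR adjusted p = 0.0259). That call was lost when WT animal 3 (1.59, adjusted p = 0.0549), WT animal 5 (1.68, 0.0605), KO animal 1 (1.78, 0.0504), KO animal 4 (1.68, 0.0533) or KO animal 5 (1.66, 0.0626) was left out, and with no filter on low counts (1.76, 0.0689).

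RSEM divides reads among copies, so the share of transcript sequence in common was counted. Of all windows of 50 bases in its transcripts, Btnl4 had 14.0% in common with another gene, mostly Btnl5-ps, and Btnl6 had 6.58%. Clec2h had 2.15%, mostly Clec2i, and Clec2d 1.98%, mostly Clec2g, while Btnl1, Btnl2 and Clec2e had none. No exon of another gene overlapped an exon of the 7 genes on either strand. Summed over 6 butyrophilin-like genes, pseudogenes included, the level was 213 ± 74.0 CPM in WT and 467 ± 61.6 CPM in KO animals, and over 7 Clec2 genes 121 ± 69.0 and 456 ± 138 CPM (SD, n = 5 each). These sums do not depend on how reads were divided among the genes summed, and neither overlapped between the genotypes.

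The remaining 17 butyrophilin family genes had at most 7 counts in any library, and 11 of them, Mog and Skint genes of the skin family among them, had 0 counts in every library. Of the other CLEC2 genes only Cd69, an activation marker of lymphocytes, was tested, at 0.633 ± 0.176 CPM in WT and 0.460 ± 0.251 CPM in KO animals (SD, n = 5 each; edgeR adjusted p = 0.340). None of the 5 NKR-P1 receptor genes passed the filter, the highest count in any library being 14.

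Transcripts of T cells and intraepithelial lymphocytes were found in all libraries. None of 26 tested T cell and intraepithelial lymphocyte markers passed the edgeR threshold, 0 had an unadjusted p below 0.05, and their median log2 fold change was 0.19. Summed over the list they ranged from 105 to 393 CPM in WT and from 178 to 436 CPM in KO animals. Tcrg-V7, the Vγ7 segment that BTNL1 and BTNL6 act on, had a log2 fold change of 0.48 ± 0.48 (SE, edgeR adjusted p = 0.479). It is named after its values were seen and had 10 to 88 counts per library.

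Other epithelial signals to these lymphocytes rose in part. Of 18 tested ligand and cytokine genes 7 rose and none fell by the edgeR test, against 15.6% of all genes called higher, with a median log2 fold change of 0.14. H2-Q1, a class Ib molecule, rose by 1.76 ± 0.41, the cytokine Il18 by 1.51 ± 0.37, Il15, which sustains intraepithelial lymphocytes, by 1.48 ± 0.23, and H2-T23, the ligand of NKG2A receptors, by 0.82 ± 0.19 on the log2 scale (SE, edgeR adjusted p of 0.00152 to 0.0161). The other 3 that rose were H2-T3, Ccl25 and Ocln. The adhesion partner of CD103, Cdh1, stood at 810 ± 80.9 CPM in WT and 817 ± 41.5 CPM in KO animals (SD, n = 5 each), and is named after its values were seen.

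**Figure D4:**
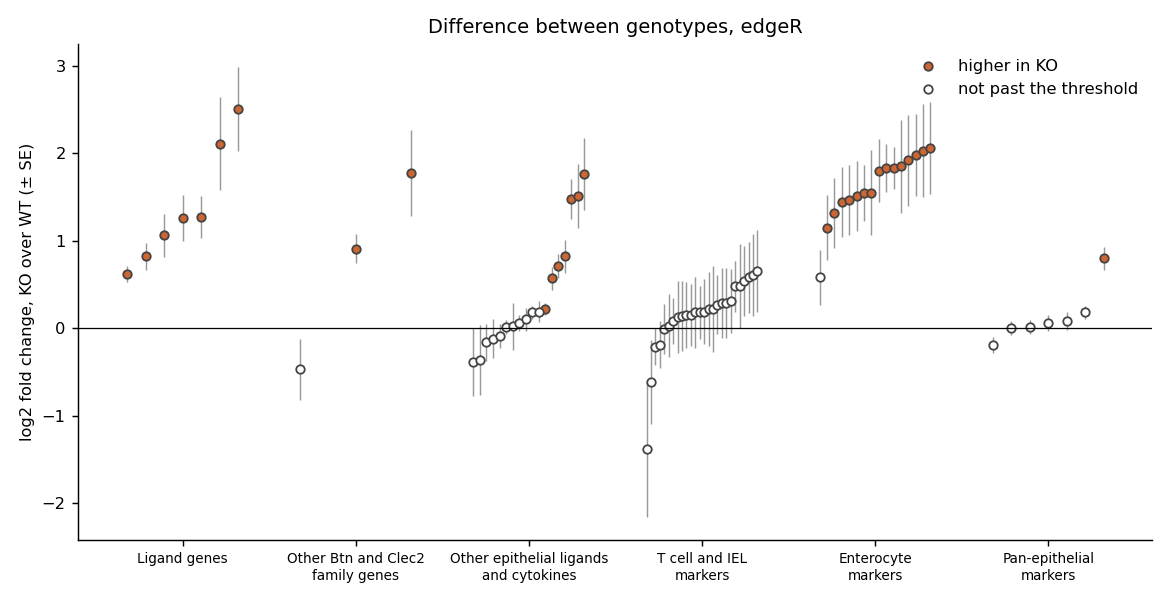
Log2 fold change of KO over WT with its SE (vertical axis) for the 7 ligand genes and for the tested genes of 5 groups, one point per gene, filled where the edgeR adjusted p was below 0.05. The ligand genes span 0.62 to 2.51, the enterocyte markers 0.58 to 2.06, and no T cell or lymphocyte marker is filled.

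Of 10 intestinal transcription factors 4 rose and none fell by the edgeR test. Hnf4g, 1 of the 2 HNF4 genes, stood at 125, 102, 87.5, 80.7 and 102 CPM in WT and 202, 178, 178, 198 and 276 CPM in KO animals. The groups did not overlap, and the log2 fold change was 1.05 ± 0.14 (SE, edgeR adjusted p = 9.26e-04). Hnf4a was at 1151 ± 68.2 CPM in WT and 1040 ± 44.3 CPM in KO animals (SD, n = 5 each). Its log2 fold change of -0.15 did not pass in edgeR (adjusted p = 0.120). It passed as lower in DESeq2 (-0.14, adjusted p = 0.0283), with library size only (-0.28) and in limma on log2 TPM (-0.27). Cdx2 (-0.07, edgeR adjusted p = 0.577) did not pass either. Maf (1.44 ± 0.21), Klf4 (0.70 ± 0.11) and Gata6 (0.31 ± 0.07, SE) were the others that rose. The call of Gata6 was lost with library size only (0.18, adjusted p = 0.0760) and in limma on log2 TPM (0.21, adjusted p = 0.0881).

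The 4 butyrophilin-like genes lie in a span of 163 kb in the major histocompatibility complex and the 3 Clec2 genes in a span of 524 kb in the natural killer gene complex. Of 31 other tested genes within 250 kb of the first span 5 rose and 1 fell, and 16.1% higher is close to the 15.6% of all genes. The nearest of them were Btnl5-ps and Btnl7-ps, then the antisense RNA Gm20463 (log2 fold change 0.83 ± 0.17, SE), whose reads cannot be told from those of Rnf5 without strand, and Agpat1, an acyltransferase (0.33 ± 0.08, SE). The median of the 31 genes was -0.13.

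Around the Clec2 genes 1 of 14 other tested genes rose and 1 fell (7.14% higher), with a median log2 fold change of -0.20. They were the pseudogene BC064078 (0.43 ± 0.11), 84.0 kb away, and the chaperone gene Fkbp4 (-0.45 ± 0.14, SE). The rise of the ligand genes was thus not shared by most genes around them.

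**Figure D5:**
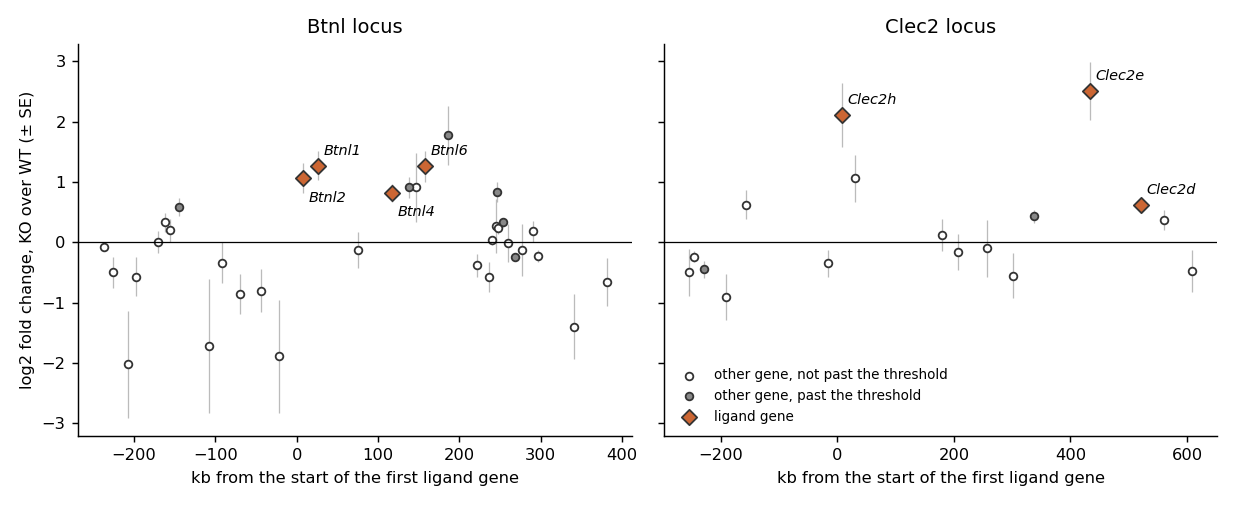
Log2 fold change of KO over WT with its SE (vertical axis) against the distance in kb from the start of the first ligand gene of each locus, for the ligand genes (diamonds) and the other tested genes within 250 kb of the span (circles, filled where the edgeR adjusted p was below 0.05). The ligand genes stand between 0.62 and 2.51 amid neighbours with medians of -0.13 and -0.20.

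Likeness of whole profiles was measured as the root mean square difference of centred log2 CPM over the 10 libraries, among 11957 genes with a mean of at least 50 counts. Btnl6 was the nearest of all genes to Btnl1, at 0.08, and Btnl1 the nearest to Btnl6. The nearest genes outside the 7 were Fam214b, Nat8f4, an acetyltransferase, and Ces2e, a carboxylesterase, at 0.08 each. For Clec2e they were the drug-metabolising enzyme Cyp3a13 (0.24), the guanine deaminase Gda (0.26) and 2010106E10Rik (0.26), with Clec2h the second nearest gene (0.26). The nearest of the other 6 genes to Clec2d was Btnl4, at 0.20, but only at place 998 among all genes, the nearest of which was at 0.04.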

How the data were processed

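Reads of 10 libraries (5 WT, 5 KO) were processed by the authors through nf-core/rnaseq, with STAR for alignment, RSEM for gene estimates and an Ensembl annotation of GRCm38. The authors deposited expected counts (not normalized between libraries), TPM and effective length for 54838 genes. The strand setting is not given in the sources used here. Symbols and positions came from GENCODE M21 (GRCm38), which matched 54809 genes, and the 29 others took 0.00132% of the counts.

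Expected counts were rounded and tested in R 4.3.3 with edgeR 4.0.16 (filterByExpr, minimum count 10, TMM factors, robust quasi-likelihood test, Benjamini-Hochberg adjustment over 14719 genes, threshold 0.05). The study used DESeq2 with a time term that has 1 level here. Within-animal ratios used log2(CPM + 0.5) and two-sided exact permutation tests over 252 assignments, and 95% intervals hold the shifts that this test did not reject. The deposited TPM served for levels between genes. Promoter windows were aligned with free end gaps (match 1, mismatch -1, gap -2). The script was tested on simulated data.

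A gene at 1 CPM had 27.1 to 31.1 counts per library. The 7 genes and the lists were chosen with earlier results of these data known, so tests on them are not independent of those results. Text on lists named at most the 4 called genes with the largest change and a mean of at least 50 counts, the tested genes of both families, Hnf4a, Hnf4g and Cdx2, the 3 nearest profiles of Btnl1 and Clec2e, and called neighbours within 250 kb. A further transcription factor of the list is not reported here. Libraries of a group differed from each other by far more than sampling noise. Alternatives were DESeq2 1.42.0, limma 3.58.1 (voom and log2 TPM with pseudocounts 0.5 and 1), RLE factors, plain library sizes, no filter on low counts, a minimum of 10 in each library, unrounded counts, an effective length offset, a replicate block and leaving out animals.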

Additional observations from a re-analysis of the deposited data

Results flagged for a closer look

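Of 40 sets of 5 animals looked at, 1 held an animal far from the others by Dixon's test, which chance does in about 1 of 20 sets. It was the log2 ratio of Btnl1 to Btnl6 in KO animal 4, at 0.36, against 0.22 to 0.26 in the other KO animals, a gap of 0.714 of the range and above the critical value for 5 animals. WT animal 5 had a higher ratio (0.46), so KO animal 4 lay within the range of all animals.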

How the results depend on the processing

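In the genotype test the 7 ligand genes kept their direction in all 161 combinations of gene and alternative and stayed past the threshold in 160. The exception was Clec2h with a replicate block (2.37, adjusted p = 0.0528). Replicate numbers carry no stated pairing, and deviations of same-numbered animals correlated between -0.16 and 0.13, so the block is no evidence of a weaker effect. With it no exact test of a ratio passed the threshold, since 5 pairs cannot reach the threshold in such a test: Clec2e to Clec2d (2.08), Clec2h to Clec2d (1.76), and relative to enterocyte markers Btnl1 (-0.42), Btnl2 (-0.65), Btnl4 (-0.94), Btnl6 (-0.42), Clec2e (0.94), Clec2h (0.62) and Clec2d (-1.14).

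With a pseudocount of 5 the ratio of Btnl1 to Btnl6 moved to 0.01 and Clec2e to Clec2h to -0.11, both not past the threshold, while Btnl1 to Btnl4 (0.55, adjusted p = 0.0476) and to Btnl2 (0.27, adjusted p = 0.0159) passed it in the exact permutation test. In TPM, Btnl1 and Btnl6 relative to enterocyte markers (-0.42 each) missed it at 0.0556. With the median of the markers Clec2h (0.48) missed it. The pseudocount of 5 moved Clec2e relative to enterocyte markers from 0.94 to 0.46, still past the threshold (adjusted p = 0.0278, exact permutation). Against pan-epithelial markers Btnl1 (1.20), Btnl2 (0.97), Btnl4 (0.68), Btnl6 (1.20) and Clec2d (0.48) turned to higher. Leaving out 1 animal gave ranges of -0.03 to 0.05 for Btnl1 to Btnl6, 0.41 to 0.67 for Btnl1 to Btnl4, 0.16 to 0.28 for Btnl1 to Btnl2, 0.23 to 0.40 for Clec2e to Clec2h, 1.82 to 2.38 for Clec2e to Clec2d and 1.42 to 2.06 for Clec2h to Clec2d. Relative to enterocyte markers they were -0.51 to -0.31 (Btnl1), -0.73 to -0.52 (Btnl2), -1.17 to -0.75 (Btnl4), -0.51 to -0.30 (Btnl6), 0.89 to 1.04 (Clec2e), 0.49 to 0.72 (Clec2h) and -1.34 to -0.93 (Clec2d). In 38 of these 70 the adjusted p of the exact permutation test rose to between 0.0556 and 0.119. This held without WT 4, KO 1, KO 4 or KO 5 for all 7 genes, without KO 2 for Btnl1, Btnl4, Btnl6 and Clec2d, and without WT 1 or WT 3 for Btnl1, Btnl4 and Btnl6.

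Genes called numbered 4167, of which 55.1% were higher, and 2143 (68.7% higher) without WT animals 3 and 4. With library size only 27.7% of calls were higher and the median of all genes was -0.16, and with limma on log2 TPM 34.0% and -0.12, where the smallest log2 fold change of the 7 was still 0.50 and 0.53. The cause of these shifts was not tested.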

Other observations

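Other cell types of the crypt moved beside the ligand genes. Of 5 Paneth cell markers 4 fell, among them Mptx2 (-1.29 ± 0.36), Mmp7, a matrix metalloproteinase (-1.01 ± 0.21), and Lyz1, lysozyme (-0.60 ± 0.15, SE, log2 fold change). Of 6 stem cell markers 4 fell, led by Ascl2 (-0.57 ± 0.17) and Olfm4 (-0.50 ± 0.15) (SE). Of 5 enteroendocrine markers 3 rose (Chgb 0.43 ± 0.11) and of 4 tuft cell markers 2 rose (Trpm5 0.25 ± 0.08), while none of 6 goblet cell markers passed the edgeR test. The enteroendocrine and tuft cell calls were lost with library size only (Chgb 0.30, adjusted p = 0.0562, Trpm5 0.12, 0.295) and in limma on log2 TPM (Chgb 0.32, 0.0739, Trpm5 0.10, 0.501), and those of Ascl2 (0.0654) and Mptx2 (0.0672) with no filter on low counts. Without WT animals 3 and 4 Mmp7 and Chgb were still called, while Mptx2, Lyz1, Ascl2, Olfm4 and Trpm5 were not.

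Cells from outside the epithelium gave less RNA in KO crypts where a difference was called. Jchain, of plasma cells, stood at 24.2 ± 6.31 CPM in WT and 6.27 ± 2.92 CPM in KO animals (SD, n = 5 each) and was called among 5 B and plasma cell markers. Of 7 myeloid markers 1 fell, C1qa (-1.28 ± 0.38), and of 8 stromal and endothelial markers 2 fell, among them Pecam1 (-1.19 ± 0.28, SE). Jchain was still called without WT animals 3 and 4, and C1qa and Pecam1 were not. With no filter on low counts C1qa missed the threshold (adjusted p = 0.0857), as it did in 7 of 10 edgeR fits without 1 animal (up to 0.0723). Their part in the rise of the ligand genes was not tested.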
